A study of Mus musculus with 48 samples.

Results

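The vacuolar H+-ATPase (V-ATPase), the proton pump that acidifies lysosomes, and the lysosomal cathepsins were followed in circadian RNA-seq of mouse tibialis anterior muscle. The genes were chosen by name. They were the protein-coding genes whose symbol begins with Atp6v or Atp6ap, those named Cts followed by a single letter, and Lamp1 and Lamp2. This rule found 46 genes among the 21970 protein-coding genes and the 56748 genes of all kinds in the deposited table. They comprised 14 V1 genes, 9 V0 genes, 18 cathepsin genes, and 5 genes for accessory proteins and lysosome-associated membrane proteins (LAMPs). Families follow the symbols. The V1 genes thus include Atp6v1fnb, which GENCODE M39 names Spmip1 and not as a pump subunit. It had 2 reads in all.

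The muscles came from male mice that were 39 to 55 weeks old. WT and FoxP1SkmKO mice received either murine KPC pancreatic cancer cells (KPC mice) or sterile vehicle without cells (control mice) into the pancreas, and all were kept in constant darkness before collection every 4 h from CT18 to CT38. Each of the 24 combinations of genotype, condition, and circadian time (CT) held 2 mice, which gave 48 libraries and 12 for each genotype and condition. FoxP1SkmKO mice are homozygous for a floxed Foxp1 allele that Cre deletes in muscle fibers, where the ACTA1 promoter drives it, so other cells of the muscle keep the gene. The sample labels call the WT mice C57BL/6J, whereas the series record describes FoxP1fl/fl mice without Cre, and a different age is given elsewhere in the study. Foxp1 itself did not separate the genotypes, with 0.630 ± 0.140 FPKM (SD, n = 12) in WT control mice and 0.578 ± 0.0682 FPKM (SD, n = 12) in FoxP1SkmKO control mice and overlapping ranges, so genotypes are used as labelled. FPKM are fragment counts scaled to gene length and library size. Levels of different genes are compared on this scale, so their order depends on the deposited length of each gene.

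The shallowest library held 14480867 gene counts and the deepest 20787784, and the median library held 16602092. The defining markers of muscle fibers were high in every library, with a mean of 23580 FPKM for Acta1 and 3324 FPKM for Ckm. A pair of libraries stood apart by gene length. In WT control mice at CT26, longer genes had relatively lower counts, with slopes of -0.094 and -0.071 on the log2 scale per doubling of gene length, whereas the other 46 libraries had slopes between -0.049 and 0.057. Comparisons of the members at CT26 that use these mice are therefore also given with 1 of them left out and with the length trend removed.

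The V-ATPase is a rotary motor. Its V1 sector faces the cytosol and hydrolyzes ATP, its V0 sector lies in the membrane and carries protons, and the reversible joining of both sectors sets how much the pump does. The acid it produces activates the cathepsins, proteases that degrade proteins delivered by autophagy and endocytosis, a route of protein loss in wasting muscle. Transcription factors of the TFEB family switch many of these genes on together through a site called the CLEAR element, whose core CACGTG is an E-box that the clock factors BMAL1 and CLOCK can bind as well.

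Promoter sites are shown first, because factors of both kinds are known to bind this core. The window ran from 250 bases before to 50 bases after the start of the canonical transcript of each gene (GENCODE M39, GRCm39, which is the mm39 build of the deposited files). CACGTG, which reads the same on both strands, was found in 8 of the 46 members and 1701 of 21770 protein-coding promoters, or 17.4% and 7.81%. Among genes with enough counts to be tested, the shares were 24.2% (8 of 33) and 9.87%. The longer TCACGTGA, which contains CACGTG, was found in Ctsb and Atp6v0e, or 6.06% of the tested members, and in 1.62% of tested protein-coding genes. The full 10-base CLEAR palindrome, which contains both, was found in no member (0 of 46) and in 0.483% of tested genes. A match is a string of letters and was not tested as a binding site. Each site below is 30 bases of the transcript strand, 5′ to 3′, with the matched letters in capitals.
Ctsd: tcttccttccccCACGTGacctgtatccag
Lamp1: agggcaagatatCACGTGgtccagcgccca
Ctsb: gcggtcaagcaTCACGTGAcgaatcagccc
Atp6v0b: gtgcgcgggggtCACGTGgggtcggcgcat
Atp6v1h: ctcagctgcggtCACGTGcggctgctcacg
Atp6v0e: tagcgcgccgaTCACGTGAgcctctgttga
Ctsf: caccccgtggtcCACGTGcctcgcgtaaat
Atp6v1a: aCACGTGcactcgggacactcggctcccgc

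Positions of the core are counted from the first base of the transcript, which is 1, with negative numbers before it. The Ctsd site (chr7:141941792-141941821, minus strand) had its core at -34 and the Lamp1 site (chr8:13209088-13209117, plus strand) at -21. Lamp1 held 4 cores in its window, at -21, -5, 13, and 26. The Ctsb core lay at 15 (chr14:63359879-63359908, plus strand) and the Atp6v0e core at 4 (chr17:26895361-26895390, plus strand). Atp6v0b (chr4:117744545-117744574, minus strand) and Atp6v1h (chr1:5153300-5153329, plus strand) each held 2 cores, the first at 4 and at 10. The Ctsf core lay at -4 (chr19:4905102-4905131, plus strand), and that of Atp6v1a lay at -249, next to the edge of the window (chr16:43960238-43960267, minus strand). The 8 genes include the most abundant LAMP and the most abundant cathepsins, and both V-ATPase sectors.

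Of the 46 members, 16 had a mean of at least 10 FPKM. The share of all genes at this level was not counted. The highest was Lamp1 (ENSMUSG00000031447; mm39, chromosome 8, 13209161 to 13225338, plus strand), a heavily glycosylated protein that lines the lysosomal membrane. Its level was 127.7 to 165.0 FPKM over the 48 libraries, with a mean of 147 FPKM. Ctsd (ENSMUSG00000007891; chromosome 7, 141929648 to 141941775, minus strand) encodes the aspartyl protease cathepsin D and followed at 126 FPKM. The ranges of Lamp1 and Ctsd overlapped, since Ctsd spanned 106.5 to 177.3 FPKM. Ctsb, a cysteine protease, had a mean of 53.0 FPKM and spanned 48.9 to 58.5 FPKM, entirely below both. Its deposited length was 6051 bases and that of Ctsd 2351. By reads summed over the 48 libraries, Ctsb (263809) exceeded Ctsd (244673). Among the V-ATPase genes, Atp6v1g1 (ENSMUSG00000039105; chromosome 4, 63463009 to 63468987, plus strand), which encodes a subunit of the peripheral stalk that holds the motor in place, had 87.7 FPKM, more than any other member of the pump.

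The other V1 subunits with the highest levels were Atp6v1f, of the central rotor, at 25.7 FPKM, and Atp6v1e1, the partner of G1 in the peripheral stalk, at 18.0 FPKM. In the V0 sector, the proton-carrying ring subunits Atp6v0b and Atp6v0c had 22.0 and 17.8 FPKM, and the small membrane subunit Atp6v0e2 had 18.4 FPKM. The ranges of these 3 V0 genes overlapped. Atp6ap1, an accessory protein of pump assembly, had 33.0 FPKM and Lamp2, the LAMP lost in Danon disease of muscle and heart, had 6.56 FPKM. The catalytic subunit A, encoded by Atp6v1a, had 2.90 FPKM, and the regulatory subunit H, encoded by Atp6v1h, had 1.15 FPKM. The pump's subunits therefore spanned a wide range of FPKM, from the stalk subunit G1 to the subunit H, although the assembled pump contains each of them. The deposited lengths were 1135 bases for Atp6v1g1 and 9746 for Atp6v1h, and their reads over the 48 libraries 81617 and 9164. Atp6v0a1, at 6556 bases, had more reads (85936) than Atp6v1g1.

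**Figure D1:**
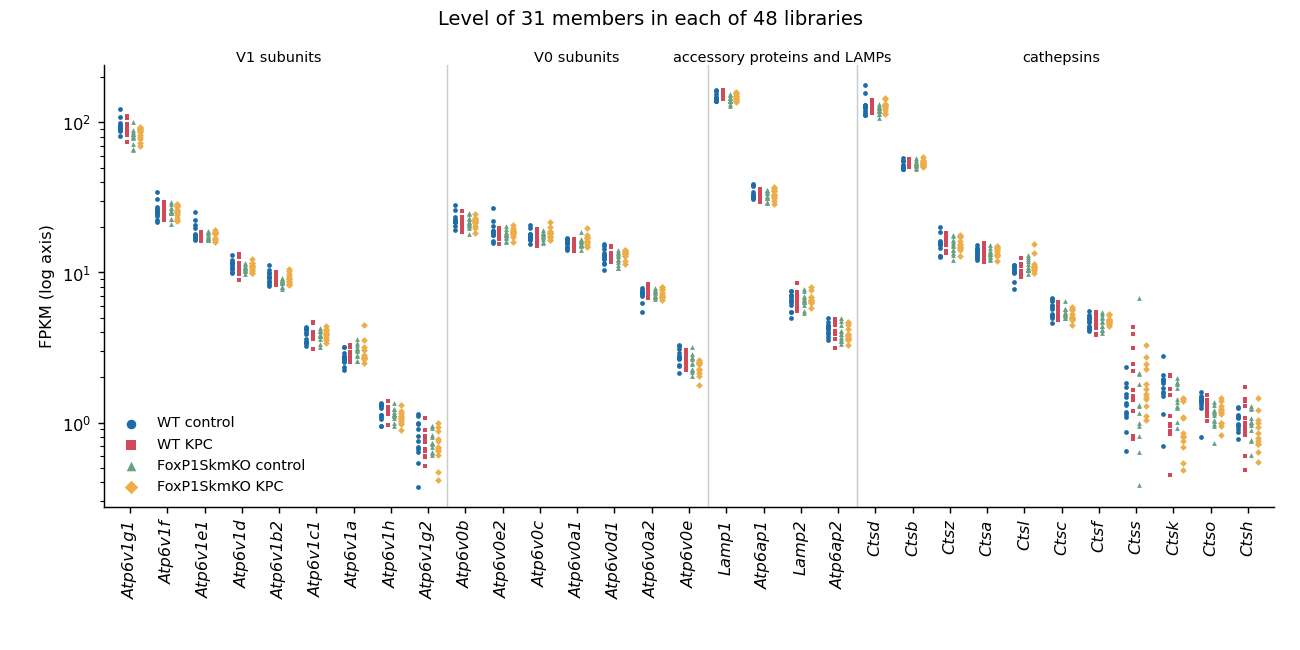
FPKM (log axis) of the 31 members with a mean of at least 0.5 FPKM, ordered by family and mean level, with 1 point for each of the 48 libraries, coloured by genotype and condition. Lamp1, Ctsd, and Atp6v1g1 sit at the top, the 4 sets overlap for each gene, and Ctss and Ctsk spread the most.

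Mean levels were 1 to 10 FPKM for 13 members and under 1 FPKM for 17. Among the latter were the kidney, bone, and epithelial forms of the pump. Subunit B came almost entirely from Atp6v1b2 in WT control mice, with 99.75% of the summed FPKM of its genes, C from Atp6v1c1 (99.5%), G from Atp6v1g1 (99.2%), and d from Atp6v0d1 (99.97%). Atp6v1g2, the neuronal form of G, supplied 0.840 ± 0.262% (SD, n = 12). Subunit a, which directs the pump to its membrane, was the most mixed. Atp6v0a1 supplied 63.0 ± 1.68% (SD, n = 12) of its summed FPKM, Atp6v0a2 28.3 ± 2.37%, and Tcirg1, the a3 form of osteoclasts, 8.60 ± 1.27%. The summed FPKM of subunit e was 87.4 ± 1.48% from Atp6v0e2 and 12.6 ± 1.48% from Atp6v0e, with deposited lengths of 2381 and 3712 bases.

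No read was counted in any library for Atp6v1g3, Atp6v1e2, or the placental cathepsins Ctsq, Ctsr, and Ctsm. A count of 0 over the 48 libraries allows up to 3 reads, or 0.00368 on the CPM scale of counts relative to library size. Very few reads were counted for Ctsj (1 read in all), Atp6v1fnb (2), the neutrophil protease gene Ctsg (6), the osteoclast form Atp6v0d2 (18), Atp6v1c2 (19), Ctse (34), the kidney forms Atp6v1b1 (42) and Atp6v0a4 (138), Atp6ap1l (96), and Ctsw (124), a cathepsin of cytotoxic lymphocytes. In total, 33 members had counts that allowed a test (9 V1, 7 V0, 5 accessory and LAMP, 12 cathepsin), and the other 13 are described by level alone. Reads of overlapping genes can be assigned to either one. Ctsd overlaps a predicted gene on the same strand (Gm49369) over 6757 bases of its locus, and Lamp1 overlaps Grtp1 on the opposite strand over 3317 bases.

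Levels of the pump and the proteases were close together in the 4 sets of mice. The summed level of the 26 V-ATPase genes was 306 ± 26.0 FPKM (SD, n = 12) in WT control, 296 ± 16.0 in WT KPC, 284 ± 13.3 in FoxP1SkmKO control, and 292 ± 8.80 in FoxP1SkmKO KPC mice. The cathepsins summed to 237 ± 24.01 FPKM (SD, n = 12) in WT control, 236 ± 11.6 in WT KPC, 229 ± 10.9 in FoxP1SkmKO control, and 238 ± 11.8 in FoxP1SkmKO KPC mice. For both sums the means of the sets differed by less than the SD of the WT control mice, which was the widest. That SD includes the WT control pair at CT26, with 342 and 374 FPKM for the V-ATPase genes and 272 and 297 FPKM for the cathepsins. It is a spread of libraries over the circadian times and not the error of a difference between means.

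The effect of the tumor, averaged over the 6 circadian times, was tested first, since lysosomal degradation is a candidate route of muscle loss. No member passed the threshold in either genotype (edgeR quasi-likelihood test, Benjamini-Hochberg adjusted over 15637 genes), against 1.79% of all genes in WT and 0.428% in FoxP1SkmKO mice. Without adjustment, 3 of the 33 members had a p under 0.05 in WT and 4 in FoxP1SkmKO mice, against 15.2% and 12.4% of all genes. DESeq2 on the 48 libraries called 0 members in both genotypes too. The median log2 fold change of the members was -0.00 in WT and 0.03 in FoxP1SkmKO mice, and that of all genes was 0.00 in both.

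Ctsd shows how close the sets lay. Its FPKM ranged from 111 over a median of 126 to 177 in WT control mice and from 116 over 123 to 141 in WT KPC mice. In FoxP1SkmKO mice it ranged from 107 over 121 to 134 in controls and from 114 over 129 to 145 with tumors. The ranges overlapped in both genotypes, and its averaged log2 fold change in FoxP1SkmKO mice was 0.09 (adjusted p = 0.168). Lamp1 ranged from 138 over 144 to 165 FPKM in WT control and from 143 over 152 to 165 FPKM in WT KPC mice, and its change was 0.05 in WT (adjusted p = 0.384) and 0.06 in FoxP1SkmKO mice (adjusted p = 0.374).

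Among the 16 members with at least 10 FPKM, the averaged change in WT lay between -0.09 for Atp6v1e1 and 0.06 for Ctsb, with standard errors of 0.027 to 0.058. In FoxP1SkmKO mice all 16 lay above 0, between 0.006 for Atp6v0b and 0.09 for Ctsd, and none passed the test. Of all 33 tested members 24 lay above 0 there, and 6 of the 16 did in WT. These genes share libraries, and the share of all genes above 0 was not counted. The difference of the KPC effect between genotypes passed for 0 members and 0% of all genes. Without adjustment, 5 members (Ctsd, Atp6v1e1, Atp6v1g1, Atp6v1b2, and Atp6v0e2) had a p under 0.05, against 6.52% of all genes. Each of these 5 had a lower KPC effect in WT than in FoxP1SkmKO mice, by -0.12 to -0.15, and each had an adjusted p of 0.764. The average includes CT26 and thus the WT control pair that stood apart. All 5 were also called lower in KPC mice at CT26 in WT, as given below.

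Time of day changed this picture at 1 point. In WT mice at CT26, 6 members were lower in KPC than in control mice and 0 were higher, whereas 7.17% of all genes were called, 2.53% lower and 4.64% higher. They were 3 subunits of V1 (Atp6v1e1 and Atp6v1g1 of the peripheral stalk and Atp6v1b2, which forms the ATP-binding head together with A), 2 subunits of V0 (Atp6v0e2 and Atp6v0b), and cathepsin D. Of the 33 members, 26 had a log2 fold change below 0, with a median of -0.21, and that of all genes was 0.00. Without adjustment, p was under 0.05 for 12 members and 21.4% of all genes.

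At the other 5 times in WT 0 members were called by edgeR or DESeq2, where 0.0064% of all genes were called by edgeR at CT30, 0.0256% at CT38, and 0% at CT18, CT22, and CT34. Without adjustment, p was under 0.05 for 6 members at CT18 (6.23% of all genes), 1 at CT22 (4.77%), 2 at CT30 (5.21%), 1 at CT34 (6.06%), and 3 at CT38 (9.82%). In FoxP1SkmKO mice 0 members were called at any of the 6 times by either tool, where 0.0192% of all genes were called at CT18, 0.0384% at CT26, 0.0064% at CT38, and 0% at CT22, CT30, and CT34. Without adjustment, p was under 0.05 there for 4 members at CT18 (13.8% of all genes), 2 at CT22 (4.69%), 3 at CT26 (8.9%), 2 at CT30 (8.95%), 0 at CT34 (4.05%), and 5 at CT38 (8.05%). Among the single times, CT26 in WT mice was thus where members were called.

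Atp6v1e1 (ENSMUSG00000019210; chromosome 6, 120771266 to 120799754, minus strand) carried the clearest difference. It had 25.1 and 22.3 FPKM in the WT control mice at CT26 and 18.4 and 16.4 FPKM in the WT KPC mice. The control pair lay above all of the other 46 libraries of the study, which spanned 16.1 to 20.6 FPKM. The log2 fold change was -0.45 ± 0.077 (SE, adjusted p = 3.13e-04).

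Atp6v1g1 had 122 and 108 FPKM in control and 83.6 and 89.5 FPKM in KPC mice at CT26 (-0.42 ± 0.10, SE, adjusted p = 0.00888). Both control values were again the higher ones, although 1 library of another group, WT KPC at CT38, reached 110 FPKM. Ctsd had 177 and 156 FPKM in the control and 140 and 138 FPKM in the KPC mice (-0.27 ± 0.074, SE, adjusted p = 0.0210), and the highest of the other 46 libraries had 145.2 FPKM. The KPC values of Ctsd were themselves near the top of the WT KPC range.

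The other 3 genes had adjusted p-values between 0.0201 and 0.0359. Atp6v0e2 had 26.8 and 22.0 FPKM in control against 18.4 and 19.5 FPKM in KPC mice (-0.37, adjusted p = 0.0201). Atp6v0b had 28.3 and 26.0 FPKM against 20.95 and 22.3 FPKM (-0.33, adjusted p = 0.0248). Atp6v1b2 had 11.2 and 10.4 FPKM against 9.005 and 8.44 FPKM (-0.31, adjusted p = 0.0359). For each of the 6 genes the pairs did not overlap, which adds no support, since the genes were chosen by a call in this same comparison. The share of all genes with such a gap was not counted.

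**Figure D2:**
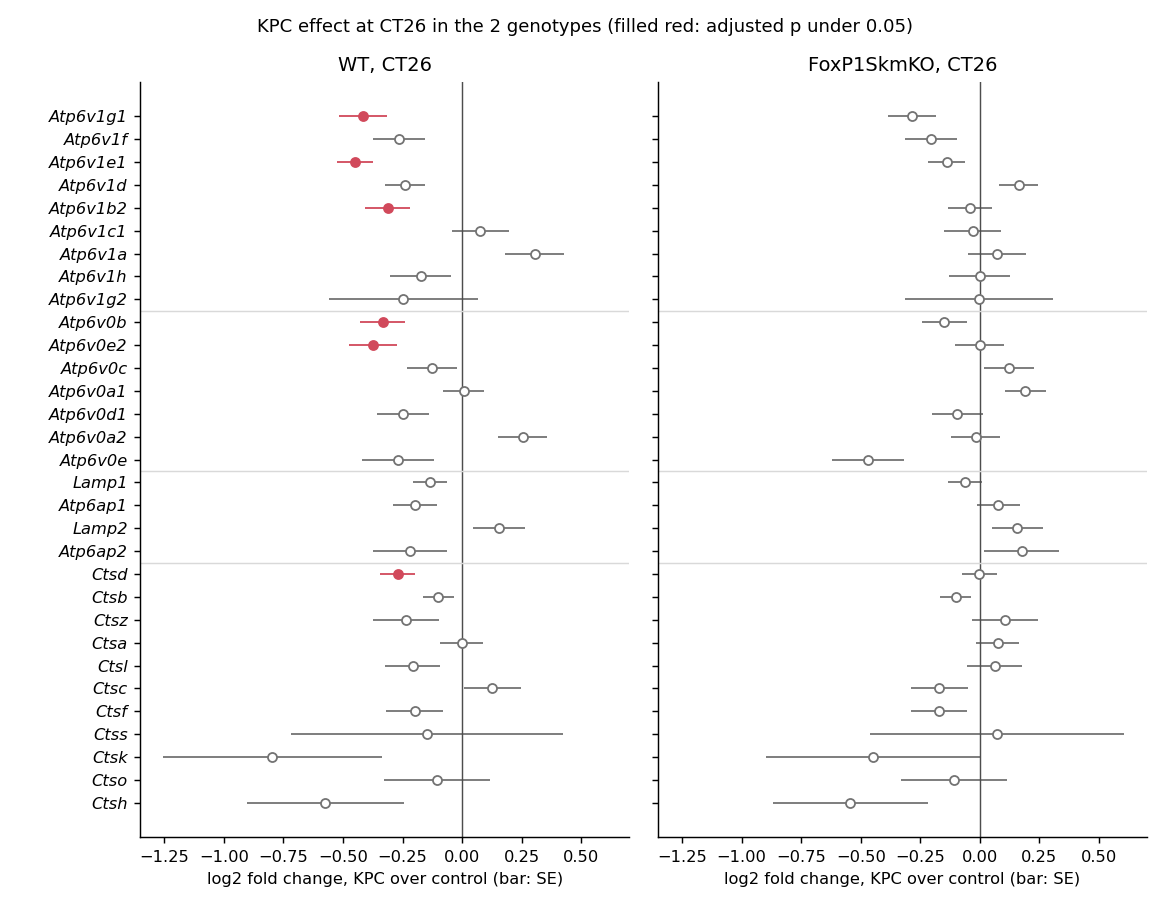
Log2 fold change of KPC over control mice at CT26 with its SE (bars), for 31 members, in WT (left) and FoxP1SkmKO mice (right), with members at an adjusted p under 0.05 filled in red. The 6 filled points lie between -0.45 and -0.27 in WT, and no point is filled in FoxP1SkmKO mice.

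The number of calls depended on single mice and on gene length. Without WT control replicate 1 at CT26 it was 1 (Atp6v1e1), without replicate 2 it was 7 (the same 6 lower and Atp6v0a2 higher), and without WT KPC replicate 1 or 2 it was 1 or 2. With the length trend of each library removed it was 2, with Atp6v1e1 at -0.43 (adjusted p = 0.00139) and Atp6v1b2 at -0.36 (adjusted p = 0.029). DESeq2 on the 4 libraries of this comparison called Atp6v1g1 and Atp6v1e1.

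In FoxP1SkmKO mice at CT26 the median log2 fold change of the members was -0.02. Atp6v1g1 had 100.2 and 84.3 FPKM in control and 82.3 and 69.9 FPKM in KPC mice, and its log2 fold change of -0.29 did not pass (adjusted p = 0.387). Atp6v1e1 had 18.4 and 17.1 FPKM against 16.1 and 16.4 FPKM (-0.14, adjusted p = 0.606). The difference between the genotypes at CT26 passed for 0 members with edgeR or DESeq2 and 0.345% of all genes with edgeR, and 6 members (11% of all genes) had an unadjusted p under 0.05. The largest, for Atp6v1d of the central rotor, was -0.40 ± 0.12 (SE, adjusted p = 0.127), and that of Atp6v1e1 was -0.31 (adjusted p = 0.233). A different tumor response in FoxP1SkmKO mice at CT26 was therefore not shown for any member.

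**Figure D3:**
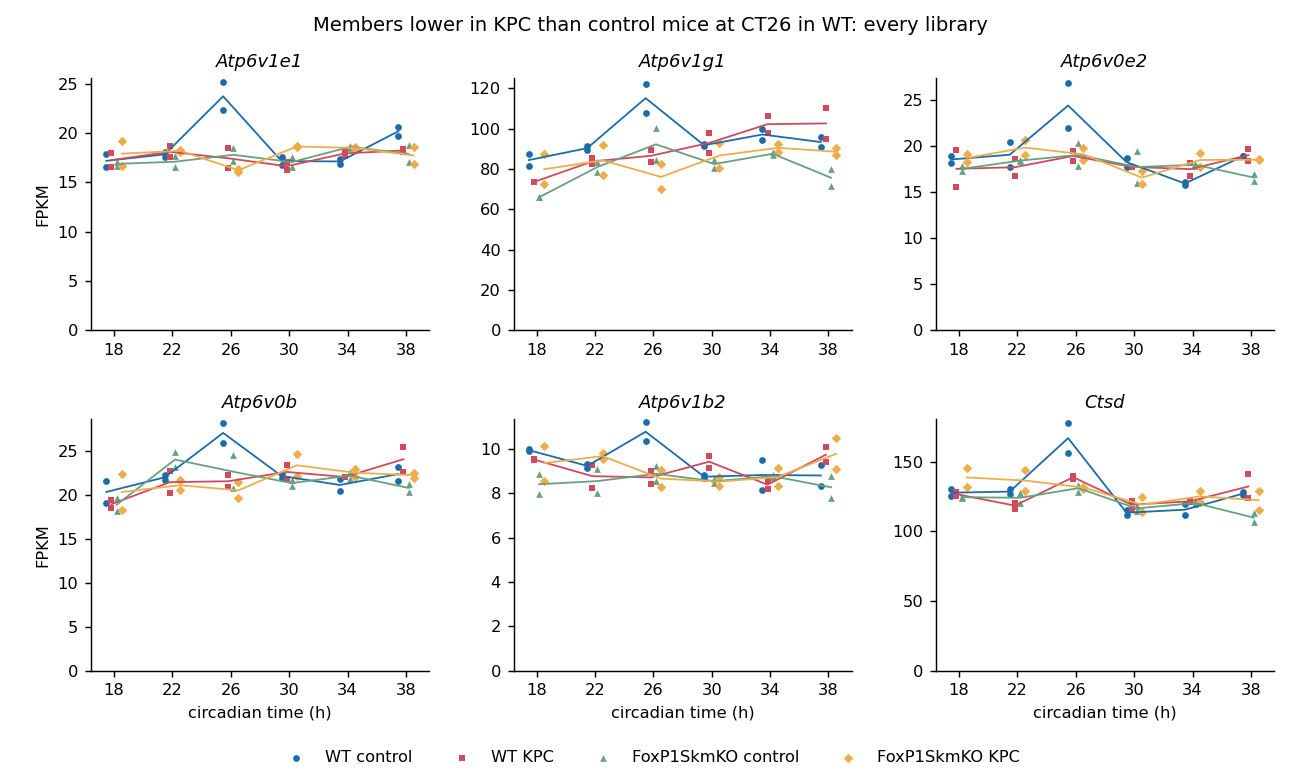
FPKM of the 6 members called in WT mice at CT26, by circadian time in hours, with 1 point for each library and lines through the means of each genotype and condition. The WT control pair at CT26 stands above the other WT control mice in each panel, whereas the WT KPC pair at CT26 lies among the other libraries.

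Whether the tumor-bearing or the control mice were unusual at CT26 was asked next, within the WT control mice. Against the other 5 times, 14 members were higher and 3 were lower at CT26, and 23.4% of all genes were called, 11.5% higher and 11.9% lower. The higher ones included Ctsd (0.45 ± 0.056, SE, adjusted p = 5.33e-07), Atp6v0e2 (0.44, adjusted p = 6.71e-05), and Atp6v1e1 (0.42 ± 0.057, SE, adjusted p = 3.15e-06). Of the V1 genes 5 of 9 were higher, of the V0 genes 4 of 7, of the accessory and LAMP genes 2 of 5 (Lamp1 and Atp6ap1), and of the cathepsins 3 of 12 (Ctsd, Ctsz, and Ctsb). Lamp2 (-0.36, adjusted p = 0.00217), Ctsc (-0.28, adjusted p = 0.0261), and Atp6v0a2 (-0.23, adjusted p = 0.0374) were lower.

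Both CT26 libraries lay above the other 10 WT control libraries for 13 members, and 10.2% of all tested genes did so. They lay above all 46 other libraries for 7 members (Ctsd, Atp6v1f, Atp6v0b, Atp6v0e2, Atp6v1e1, Ctsz, and Atp6v0d1), and 3.46% of tested genes did so. Both lay below the other 10 for Lamp2 and Ctsc, and 11.9% of tested genes did so. Lamp2 had 5.42 and 4.97 FPKM at CT26, whereas the rest of the WT control mice spanned 5.46 to 7.56 FPKM. Summed over all 46 genes, the level was 780 and 842 FPKM in these 2 mice. In WT KPC mice at the same time it was 692 and 702 FPKM, in FoxP1SkmKO control mice 684 and 716 FPKM, and in FoxP1SkmKO KPC mice 667 and 684 FPKM.

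The same contrast of CT26 with the other 5 times called 0 members in WT KPC (0.799% of all genes), FoxP1SkmKO control (0.269%), and FoxP1SkmKO KPC mice (1.75%). Without adjustment, p was under 0.05 for 3, 8, and 4 members in turn (11.1%, 13.3%, and 14.5% of all genes). Lamp2 was lower at CT26 in FoxP1SkmKO control mice, with 5.51 and 5.41 FPKM and a log2 fold change of -0.30, which passed with DESeq2 (adjusted p = 0.0433) and not with edgeR (adjusted p = 0.107). Ctsd in WT KPC mice was 0.17 above the other times (adjusted p = 0.186). The CT26 deviation itself differed between WT control and WT KPC mice for 4 members, Atp6v1e1 (0.43, adjusted p = 0.00174), Atp6v1g1, Atp6v0b, and Ctsd, and 5.68% of all genes. It differed between WT control and FoxP1SkmKO control mice for 3, Atp6v1e1 (0.39, adjusted p = 0.00613), Ctsd, and Atp6v1d, and 3.62% of all genes. These contrasts, the KPC effect at CT26 above, and the genotype effect at CT26 below rest on the same 2 WT control mice.

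Gene length moved with this pattern. The 11 tested members under 2500 bases had a median log2 fold change of 0.40 at CT26 in WT control mice, and the 22 longer ones 0.17. Across the 33 members the rank correlation of this change with deposited gene length was -0.696, and across all tested genes -0.387. These values describe genes within the same libraries, which share depth and preparation. With the length trend of each library removed, the split was 8 higher and 0 lower. Ctsd (0.30, adjusted p = 2.5e-04), Atp6v1e1 (0.38, adjusted p = 3.08e-05), Atp6v0e2, Ctsb, Atp6v1d, and Atp6v1b2 were still called, Atp6v1h and Ctsl were added, and Lamp2, Ctsc, and Atp6v0a2 were not. Without replicate 1, 2 members were higher (Ctsd, 0.37, and Atp6v1e1, 0.34) and 1 was lower (Lamp2), and without replicate 2, 11 were higher and 1 was lower. Ctsd and Atp6v1e1 kept their calls in each of these fits. What part length has in the other calls was not tested further.

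**Figure D4:**
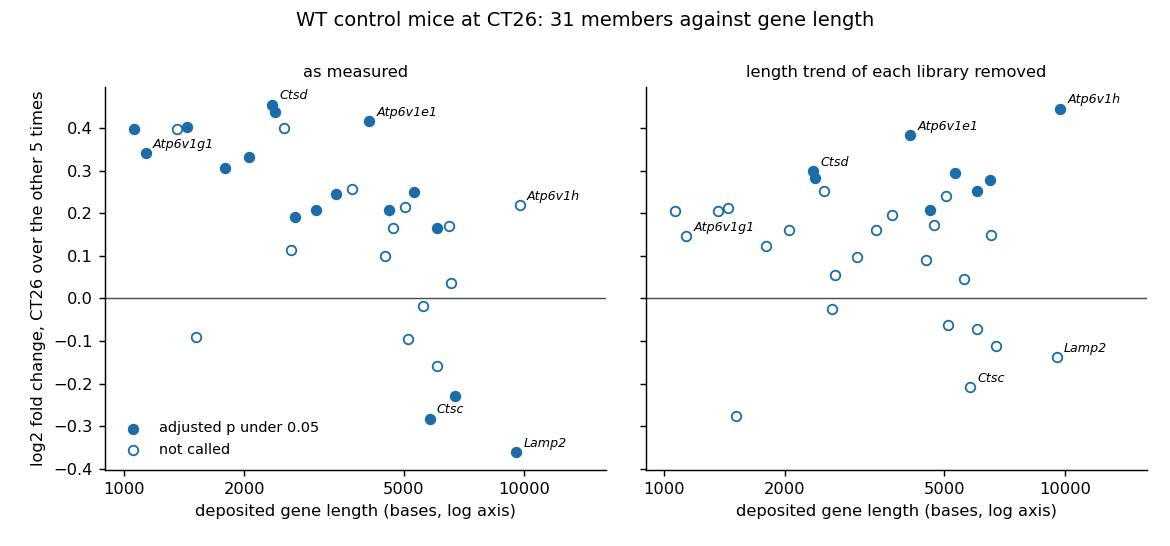
Log2 fold change of WT control mice at CT26 over the other 5 circadian times against deposited gene length in bases (log axis), for 31 members, as measured (left) and with the length trend of each library removed (right), with filled points at an adjusted p under 0.05. The 3 lower calls on the left are long genes, and no lower call remains on the right.

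Loss of FoxP1 in muscle fibers was compared in control mice next. Averaged over the 6 times, Atp6v1g1 was the only member called, lower in FoxP1SkmKO than in WT mice, and 3.44% of all genes were called, 1.58% lower. Its FPKM ranged from 81.7 over a median of 91.8 to 122 in WT control mice and from 65.9 over 82.0 to 100.2 in FoxP1SkmKO control mice, so the ranges overlapped. At each circadian time the FoxP1SkmKO mean was below the WT mean. The log2 fold change was -0.24 ± 0.041 (SE, adjusted p = 6.26e-04). The call held in all 6 other analyses and with each of 24 libraries left out, and without CT26 it was -0.23 (adjusted p = 0.00347).

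Without adjustment, 10 members had a p under 0.05 for this genotype effect, 30.3% of those tested, and 17.2% of all genes did. Of the 33 members, 24 had a log2 fold change below 0, with a median of -0.05. Atp6v1b2 (-0.13, adjusted p = 0.0502), Ctso (-0.30, adjusted p = 0.0547), and Ctsd (-0.09, adjusted p = 0.0767) lay below 0, and Ctsl (0.15, adjusted p = 0.0700) and Atp6v1a (0.16, adjusted p = 0.0654) above it. Ctsl, a cysteine protease that is a classical atrophy gene of muscle, had 7.77 to 11.3 FPKM in WT control and 9.82 to 13.1 FPKM in FoxP1SkmKO control mice. Without CT26 it was called (0.20, adjusted p = 0.0251).

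In KPC mice the genotype effect passed for 0 members and 0.32% of all genes, and 6 members (10.8% of all genes) had an unadjusted p under 0.05. DESeq2 called 0 members as well. Atp6v1g1 had a log2 fold change of -0.09 there (adjusted p = 0.409), with 73.5 to 110 FPKM in WT KPC and 69.9 to 93.1 FPKM in FoxP1SkmKO KPC mice. At CT26 alone, control mice of both genotypes differed for 5 members, all lower in FoxP1SkmKO mice, and for 6.03% of all genes, 2.29% lower. These were Atp6v1e1 (-0.42, adjusted p = 7.76e-04), Ctsd (-0.36, adjusted p = 0.00318), Atp6v1d, Atp6v0e2, and Atp6v1g1. Without WT control replicate 1 at CT26 the number was 0, without replicate 2 it was 6, and without FoxP1SkmKO control replicate 2 it was 1, and with the length trend removed it was 3.

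Cathepsins S and K varied more than other members, with coefficients of variation of 63.0% and 38.5% over the 48 libraries, against 4.94% for Ctsb. Both, and Ctso, Ctsc, and Atp6v0a2 above, were taken up after their values were seen. Ctss, the cathepsin of antigen-presenting cells, had 3.91 and 4.33 FPKM in WT KPC mice at CT18 and 1.35 and 1.72 FPKM in WT control mice. The pairs did not overlap, and the log2 fold change of 1.40 ± 0.52 (SE) had an adjusted p of 0.708. In FoxP1SkmKO mice at CT18 it had 2.29 and 2.75 FPKM with tumors and 0.998 and 6.73 FPKM without, so that a single control mouse held the highest value of the study. Averaged over the times, Ctss had a log2 fold change of 0.47 in WT (adjusted p = 0.336) and 0.33 in FoxP1SkmKO mice (adjusted p = 0.622). Without FoxP1SkmKO control replicate 2 at CT18 the latter was 0.65 (adjusted p = 0.171), and the change at CT18 turned from -0.60 (adjusted p = 0.634) to 1.34 (adjusted p = 0.491).

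Macrophage markers were high in the 3 libraries with the highest Ctss. The summed FPKM of 12 such genes was 60.8 and 76.2 in the WT KPC mice at CT18, 40.8 and 38.2 in the WT control mice, and 32.2 and 65.8 in the FoxP1SkmKO control mice, the last in the mouse with the highest Ctss. In the FoxP1SkmKO KPC mice at CT18 it was 31.8 and 38.1, no higher than in the WT control mice, although their Ctss was higher. In WT KPC replicate 2 at CT22 it was 64.7, and this library was not among those 3. Over the times the sum spanned 14.01 to 49.4 FPKM in WT control, 19.3 to 76.2 in WT KPC, 14.9 to 65.8 in FoxP1SkmKO control, and 16.1 to 44.0 in FoxP1SkmKO KPC mice. In WT, 11 of the 12 had an averaged log2 fold change above 0, with a median of 0.235, and 0 were called. Lyz2 and C1qa were found in every library, Fcgr1 was at 0 in 2 libraries, and Cx3cr1 in 3. In bulk muscle, fewer cells of a type and less RNA per cell cannot be told apart, and the part of macrophages in the Ctss values was not tested.

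Ctsk, the collagen-degrading cathepsin of bone and connective tissue, was lower with tumors in both genotypes without passing the test. It ranged from 0.701 over a median of 1.76 to 2.78 FPKM in WT control and from 0.4498 over 0.981 to 2.07 FPKM in WT KPC mice. In FoxP1SkmKO mice it ranged from 0.920 over 1.40 to 1.97 FPKM in controls and from 0.486 over 0.832 to 1.47 FPKM with tumors. The ranges overlapped, and the averaged log2 fold change was -0.57 ± 0.18 (SE, adjusted p = 0.103) in WT and -0.66 ± 0.19 (SE, adjusted p = 0.0953) in FoxP1SkmKO mice. It passed in both when genes with few counts were kept in the test (adjusted p = 0.00543 and 0.0013). Ctsk also passed in WT without WT KPC replicate 2 at CT22 or WT control replicate 2 at CT34 (-0.69 and -0.66), and in FoxP1SkmKO mice without KPC replicate 1 at CT22 or replicate 2 at CT26 (-0.74 and -0.83).

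Fibroblast markers moved with Ctsk. All 6 had an averaged log2 fold change below 0 in both genotypes, with medians of -0.48 and -0.59. Col1a1 (-0.91, adjusted p = 0.0188) and Col1a2 (-0.80, adjusted p = 0.0207) fell in WT and Lum (-0.79, adjusted p = 0.0231) fell in FoxP1SkmKO mice. The summed FPKM of the 6 had a median of 54.2 in WT control, 33.5 in WT KPC, 51.1 in FoxP1SkmKO control, and 28.7 in FoxP1SkmKO KPC mice, and none of the 6 was at 0 in any library. The part of fibroblasts in the Ctsk values was not tested.

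**Figure D5:**
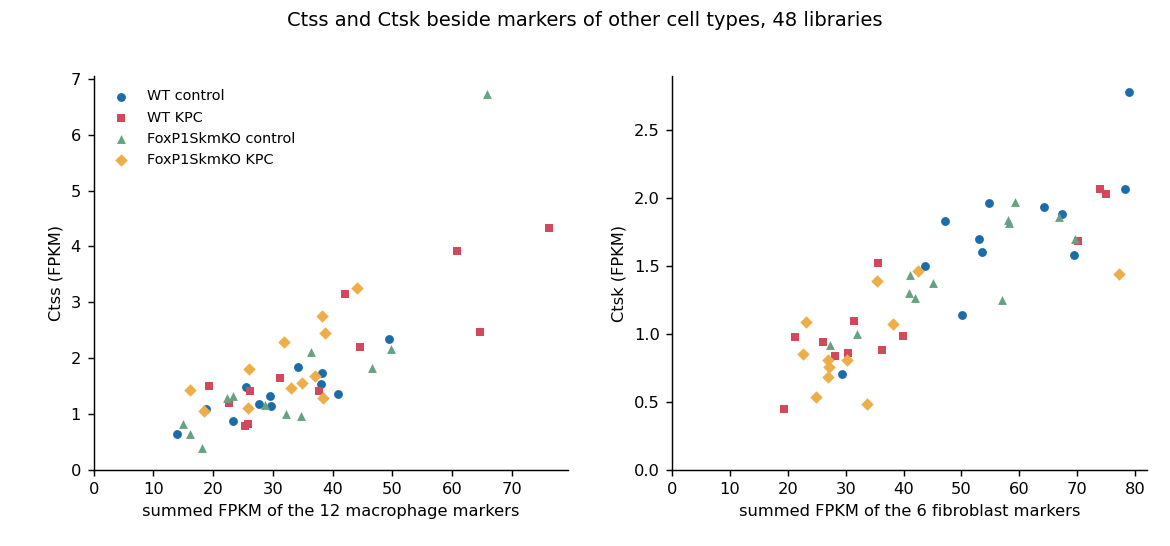
Ctss against the summed FPKM of 12 macrophage markers (left) and Ctsk against that of 6 fibroblast markers (right), with 1 point for each of the 48 libraries, all axes in FPKM. The highest Ctss value, 6.73 FPKM, sits at a macrophage sum of 65.8 FPKM, and the highest Ctsk value, 2.78 FPKM, sits at the highest fibroblast sum, 79.05 FPKM.

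Daily rhythm was sought with a sinusoid of 24 h fitted to the 12 FPKM values of each set, at a p-value under 0.01. In WT control mice 0 of 39 members with varying FPKM passed, and 4.92% of all genes did. In WT KPC mice 3 of 39 passed (4.22% of all genes), in FoxP1SkmKO control mice 3 of 40 (4.07%), and in FoxP1SkmKO KPC mice 1 of 39 (2.63%). Adjusted over all genes, 0 members passed in any set. A harmonic fit to counts in edgeR, run as an alternative on the 33 tested members, called more after adjustment, with 2 members in WT control (11.5% of all genes), 4 in WT KPC (7.92%), 1 in FoxP1SkmKO control (5.26%), and 1 in FoxP1SkmKO KPC mice (4.83%).

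The members that passed are given by set. Each passed in a single set, but so few passed that this does not set the sets apart. The share of all genes that passed in more than 1 set was not counted. In WT KPC mice Lamp1 had an amplitude of 7.44 FPKM around 152 FPKM with a peak at 33.6 h of circadian time (n = 12, p = 0.0015), Atp6v1a peaked at 29.6 h (p = 0.00493), and Ctsh, an aminopeptidase among the cathepsins, peaked at 18.6 h (p = 0.00484). Ctsh had 1.29 and 1.72 FPKM at CT18 in these mice and 0.483 and 0.910 FPKM at CT30. In FoxP1SkmKO control mice Atp6ap2, the prorenin receptor and an assembly factor of the pump, peaked at 39.0 h (n = 12, p = 0.00201), Lamp2 at 39.2 h (p = 0.00481), and Ctsl at 34.3 h (p = 0.00499). In FoxP1SkmKO KPC mice Atp6v1d peaked at 29.7 h (n = 12, p = 0.00274). Leaving out 1 library took 5 of these 7 above 0.01. The highest p came without WT KPC replicate 1 at CT30 for Atp6v1a (n = 11, p = 0.0196) and Ctsh (n = 11, p = 0.0190), without FoxP1SkmKO control replicate 2 at CT34 for Ctsl (n = 11, p = 0.0192) and at CT26 for Lamp2 (n = 11, p = 0.0176), and without FoxP1SkmKO KPC replicate 2 at CT18 for Atp6v1d (n = 11, p = 0.0113). Lamp1 and Atp6ap2 stayed below 0.01 with each library left out.

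A rhythm that passes in 1 set and not in another has not been shown to change. Tested directly, the difference between control and KPC mice passed for 0 members in WT and in FoxP1SkmKO mice after adjustment, as for 0% of all genes. Without adjustment, 6 of 39 members had a p under 0.05 in WT, Ctsb with the lowest (n = 24, p = 0.0040), and 5 of 41 in FoxP1SkmKO mice, Atp6v1d with the lowest (p = 3.48e-04), against 5.07% and 5.09% of all genes. The E-box promoters shown above belonged to Lamp1 and Atp6v1a among the 7 rhythmic cases and not to the other 5. Of the tested members 24.2% had such a promoter, so this count does not tie the sites to rhythm.

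Other lysosomal genes were read from lists. In the averaged KPC effect, 0 of 11 genes for assembly and further subunits of the V-ATPase, 0 of 37 lysosomal hydrolases and activators, 0 of 24 genes for lysosomal membrane and trafficking, 0 of 5 cathepsin inhibitors, and 0 of 17 lysosomal regulators, TFEB and its relatives among them, passed in either genotype. Their median log2 fold changes lay between -0.02 and 0.10 in WT and between -0.03 and 0.02 in FoxP1SkmKO mice. Without adjustment, p was under 0.05 for 1, 7, 3, 0, and 2 genes of the 5 lists in WT and for 1, 4, 2, 0, and 2 in FoxP1SkmKO mice, and for 15.2% and 12.4% of all genes. Of the mitochondrial ATP synthase, the other rotary proton motor of the cell, Atp5g3 fell in WT (-0.16, adjusted p = 0.0295), the only 1 of 17 to pass, and all 17 lay below 0. For the genotype effect in control mice, Laptm4a, a lysosomal membrane protein (-0.12, adjusted p = 0.0114), and Rragd, a GTPase that brings mTORC1 to the lysosome (-0.15, adjusted p = 0.0230), were lower in FoxP1SkmKO mice. In that contrast 3.44% of all genes were called, 1.58% lower, so these 2 calls do not set the lists apart.

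The lists also place the CT26 values. In WT mice at CT26, 13 of the 17 ATP synthase genes were lower in KPC than in control mice and 0 were higher, with a median of -0.38, where 7.17% of all genes were called, 2.53% lower and 4.64% higher. Each of the lysosomal lists held 1 or 2 calls, too few to set against the 7.17% of all genes. Hexa (-0.42, adjusted p = 0.0218) was the only 1 of 37 hydrolases called, and Cst3 (-0.34, adjusted p = 0.0235), the secreted cathepsin inhibitor cystatin C, the only 1 of 5 inhibitors, both lower in KPC mice. Of the 24 membrane and trafficking genes 2 were higher and 0 lower, of the 17 regulators 0 higher and 2 lower, and of the 11 assembly genes 1 higher and 0 lower. Hexa and Cst3 were named after their values were seen. Against the other times, WT control mice at CT26 had higher Hexa (0.44, adjusted p = 3.37e-04) and Cst3 (0.33, adjusted p = 6.86e-04). All these list values rest on the same WT control pair at CT26. They were read from the main fit alone, with neither mouse left out and the length trend kept. With that trend removed, 2.6% of all genes were called for the KPC effect in WT at CT26. How many list genes would stay called was not tested.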

How the data were processed

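RNA was sequenced from tibialis anterior muscle of 48 mice. The authors aligned reads to mm39 (STAR and HTSeq are named in the methods, HISAT2 2.0.5 and DESeq2 1.20.0 in the submitters' processing notes) and deposited raw counts per gene in 12 comparison tables and FPKM computed from the counts, gene lengths, and library size. The tables also hold normalized values per library, group means, and the log2 fold changes, p-values, and adjusted p-values of the authors' comparisons, none of which were used. The annotation release and the strand setting are not given in the sources used here. In the joined table, 28541 missing counts were recovered from FPKM as whole reads (tolerance 1e-06).

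Counts were fitted with edgeR 4.0.16 in R 4.3.3 (TMM, filterByExpr, 15637 genes kept, 24 groups, quasi-likelihood tests, Benjamini-Hochberg adjustment, called at an adjusted p under 0.05), with mice as replicates. Rhythms were fitted to FPKM with scipy 1.17.1. Alternatives were DESeq2 1.42.0, its size factors, no filter, lowess removal of the length trend, a replicate block, and each library left out, and for rhythms a log2 scale, adjustment, and a harmonic fit to counts. Scripts were tested on simulated data. Values were given for members called in an averaged contrast or in the KPC effect at a circadian time, for rhythmic members, and for the 3 members of each family with the highest FPKM, and list genes were named if called in an averaged contrast. Exceptions are stated. The contrasts of CT26 other than those of the KPC effect and of WT control mice were added after seeing the data. The members and lists were chosen with earlier results of these data known.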

Additional observations from a re-analysis of the deposited data

Results flagged for a closer look

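Effects that differed between groups were found for 7 results, all from the deviation of CT26 from the other 5 circadian times, and all resting on the same 2 WT control mice at CT26. Between WT control and WT KPC mice, this deviation differed by 0.43 on the log2 scale for Atp6v1e1 (edgeR, adjusted p = 0.00174), by 0.40 for Atp6v1g1 (adjusted p = 0.0255), by 0.35 for Atp6v0b (adjusted p = 0.0414), and by 0.29 for Ctsd (adjusted p = 0.0322). Between WT control and FoxP1SkmKO control mice it differed by 0.39 for Atp6v1e1 (adjusted p = 0.00613), by 0.31 for Ctsd (adjusted p = 0.0241), and by 0.31 for Atp6v1d (adjusted p = 0.0484). In each case the deviation was higher in WT control mice. Without WT control replicate 1 at CT26, 0 members passed in either comparison, and without replicate 2, 7 and 5 did. With the length trend of each library removed, Atp6v1e1 kept both calls.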

How the results depend on the processing

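No called value or count reversed, whereas Ctss in FoxP1SkmKO mice at CT18, which was not called, turned from -0.60 to 1.34 without control replicate 2. Percentages are the share of all genes called in the same fit. With the length trend removed, members called numbered 2 (2.6%) for the KPC effect in WT at CT26, 8 (14%) for WT control mice at CT26 against the other 5 times, 3 (3.27%) for the averaged genotype effect in control mice, 3 (2.46%) for that effect at CT26, and 1 (1.18%) for the difference of the CT26 deviation between WT and FoxP1SkmKO control mice. Without the filter on low counts they numbered 3 (3.4%) for the KPC effect in WT at CT26, 2 (Ctss and Ctsk, 2.39%) for the averaged KPC effect in WT, 1 (Ctsk, 1.59%) for that in FoxP1SkmKO mice, 1 for the KPC effect at CT18 in WT (Ctss, 0.494%), in FoxP1SkmKO mice (Ctsk, 1.79%), and for their difference (Ctss, 0.825%), 4 (2.81%) and 2 (2.91%) for the genotype effect in control mice averaged and at CT26, and 1 (2.28%) and 2 (2.66%) for the differences of the CT26 deviation of WT control from FoxP1SkmKO control and from WT KPC mice. DESeq2 on all libraries called 2 (Atp6v1g1 and Ctsl, 4.16%) for the averaged genotype effect in control mice, 7 (10.2%) for the difference of the CT26 deviation between WT control and WT KPC mice, and 1 (Lamp2, 1.96%) for FoxP1SkmKO control mice at CT26, and DESeq2 on 4 libraries called 2 (9.7%) for the KPC effect in WT at CT26. Without CT26, 2 (2.42%) were called for the averaged genotype effect in control mice. The cause of these changes was not tested. Rhythmic members numbered 0 in WT KPC, FoxP1SkmKO control, and FoxP1SkmKO KPC mice after adjustment, and 1, 0, and 0 after adjustment over genes with a mean of at least 1 FPKM. A harmonic fit to counts called, at p under 0.01, 2 in WT control (14.3%), 5 in WT KPC (11%), 3 in FoxP1SkmKO control (9.8%), and 1 in FoxP1SkmKO KPC mice (8.57%), and 2, 4, 1, and 1 after adjustment.

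Leaving out single libraries gave 1 to 7 calls for the KPC effect in WT at CT26, 3 to 17 for WT control mice at CT26, 0 to 6 for the genotype effect at CT26, 0 to 5 and 0 to 7 for the differences of the CT26 deviation of WT control from FoxP1SkmKO control and WT KPC mice, 0 to 1 for the averaged effect of KPC in WT and in FoxP1SkmKO mice, and 1 to 5 for the averaged genotype effect in control mice. The last rose to 5 without FoxP1SkmKO control CT38 replicate 1, 4 without WT control CT26 replicate 2, 3 without FoxP1SkmKO control CT18 replicate 2, and 2 without CT22 replicate 2, CT26 replicate 1, or CT30 replicate 1 of FoxP1SkmKO control or CT18 replicate 1, CT22 replicate 1, CT30 replicate 1, CT34 replicate 1 or 2, or CT38 replicate 1 of WT control mice. The differences of the CT26 deviation fell to 0 without FoxP1SkmKO control CT26 replicate 2 and to 1 without its replicate 1, and to 1, 2, and 2 without WT KPC CT26 replicate 1, CT26 replicate 2, and CT38 replicate 1. Rhythmic members ranged from 0 to 2 in WT control, 1 to 4 in WT KPC, 1 to 3 in FoxP1SkmKO control, and 0 to 1 in FoxP1SkmKO KPC mice. Replicate numbers did not pair the mice (correlations of their deviations from group means were -0.101 to 0.0854). With the replicate block, 6 members were called for the KPC effect in WT at CT26 and 17 for WT control mice at CT26, and the block changed no count by over 1.5 times. With 2 mice per group, the edgeR p-values rest on a spread pooled over the 24 groups and moderated across genes. They do not measure the spread of the compared mice alone. The rhythm p-values rest on the scatter of libraries around the fitted sinusoid, which includes any misfit to its shape. A mouse left alone in its group is assumed to vary like the others. Members under 1 FPKM carry few counts, and a small change in them was not detectable at this depth.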
